A study of Mus musculus with 31 samples.

Results

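The insulin-like growth factor (IGF) genes described here are the ligands *Igf1* and *Igf2*, the receptors *Igf1r* and *Igf2r*, and the binding proteins *Igfbp2*, *Igfbp3*, *Igfbp4*, *Igfbp5*, *Igfbp6* and *Igfbp7*. They are listed by gene name and make up 10 of the 55379 genes in the deposited count files. Of these 10 genes, 9 were among the 14362 genes with enough counts to be tested, and *Igf2* was not.

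The libraries come from mammary gland of 31 C57BL/6J dams, 1 library per dam, taken on lactation day 10. Dams ate either a breeder diet with 4 mg of folic acid (FA) per kg or an FA diet with 24 mg per kg, starting 2 weeks before mating, and breeding began at 6 weeks of age. From embryonic day 13 to lactation day 10 each dam received a daily injection of saline or of fluoxetine, a selective serotonin reuptake inhibitor, at 20 mg per kg. The groups are breeder diet + saline (8 dams), breeder diet + fluoxetine (7 dams), FA diet + saline (8 dams) and FA diet + fluoxetine (8 dams). All dams thus share the strain, the stage and the daily injection, and the design asks what the drug, the diet and their combination do to the transcripts of the lactating gland. The study's methods give the smaller number of dams to FA diet + fluoxetine rather than to breeder diet + fluoxetine, and the groups here follow the labels. Dams are named by group and by the number in the label.

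Total counts per library were 15412542 to 23848706 in breeder diet + saline (median 21005378.5) and 17680150 to 23875965 in breeder diet + fluoxetine (median 20919011). In FA diet + saline they were 17279592 to 27165214 (median 22047178.5), and in FA diet + fluoxetine 18919573 to 36000439 (median 23755159). At this depth the lowest count of a tested IGF gene in any library was 14, for *Igf1r*. Levels are given as CPM, counts scaled to a common library size, after correction by the trimmed mean of M values (TMM), which adjusts each library for the share taken by a few very abundant transcripts. After this correction the CPM of different libraries need not add up to the same total.

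IGF1 acts through the IGF1 receptor, a tyrosine kinase that signals through PI3K, AKT and mTOR and supports growth and survival of mammary epithelium. The IGF2 receptor, also the cation-independent mannose 6-phosphate receptor, carries IGF2 and lysosomal enzymes to lysosomes and does not signal as a kinase. Binding proteins hold IGFs in tissue and blood and either limit or prolong their action, and IGFBP5 is known for its rise when the gland involutes after weaning.

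Markers of lactating mammary gland were present: 8 of 8 secretory markers passed the filter on low counts, led by *Wap* with a mean of 196600 CPM, and none of the markers used here was at 0 counts in all 31 dams. Dam 3 of FA diet + fluoxetine, called dam 3 where no other group is named, stood apart from the other 30 libraries. Its 20 most abundant genes took 39.3% of the counts (60.5% to 81.0% in the others), its TMM factor was 3.04, and its rank correlation with its group's median profile was 0.830 (at least 0.945 in the others). The summed level of its 8 secretory markers was 58610 CPM against 318400 to 970600 CPM in the other dams, and that of its 5 luminal markers, led by *Elf5*, was 413.1 CPM against 659.2 to 1025 CPM. Its 6 fibroblast markers, led by *Col3a1*, summed to 936.7 CPM (52.1 to 295.9 CPM in the others), its 6 adipocyte markers, led by *Fabp4*, to 910.1 CPM (169.7 to 404.9 CPM), and its 8 macrophage markers, led by *C1qa*, to 290.3 CPM (46.5 to 93.9 CPM). Its 7 myoepithelial markers summed to 422.1 CPM and its 7 endothelial markers to 79.0 CPM, both within the range of the others, and the 6 lymphocyte markers, 1 of which passed the filter, were low in all 31 dams (0.347 to 3.17 CPM, led by *Cd79a* at a mean of 0.898 CPM). By these sums, milk protein and luminal transcripts were the lowest in this dam, and fibroblast, adipocyte and macrophage marker transcripts the highest, of the 31 dams. The adipocyte sum, with a mean of 297.1 CPM over all dams, is mostly *Fabp4* (mean 205.4 CPM) and says little about the other markers of that list. For each tested IGF gene, the log2 fold changes for fluoxetine, the FA diet and the interaction are given below with this dam and without it. What part these markers play in the IGF values was not tested, and RNA from whole tissue cannot tell fewer cells of a type from less RNA per cell.

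*Igf1* (ENSMUSG00000020053, chromosome 10, 87693642 to 87772904, GRCm39) encodes the ligand made by many tissues. In breeder diet + saline the dams ranged from 5.23 to 22.7 CPM with a median of 12.7, and in breeder diet + fluoxetine from 11.4 to 32.3 CPM with a median of 17.8. On the FA diet they ranged from 5.81 to 24.9 CPM (median 17.6) with saline and from 3.77 to 32.8 CPM (median 8.31) with fluoxetine. The groups overlapped: 5 of 7 fluoxetine dams lay above the saline median on the breeder diet, and 7 of 8 lay below it on the FA diet. Of the 8 FA diet + fluoxetine dams, 5 were below the lowest breeder diet + fluoxetine dam, whereas dam 5 had the highest level of all 31. The fluoxetine difference on the FA diet minus that on the breeder diet, called the interaction, was -1.25 on the log2 scale (standard error, SE, 0.541, 95% confidence interval -2.36 to -0.15). Its unadjusted p in edgeR was 0.0275, and its p adjusted over all 14362 genes was 0.977, so it did not pass the false discovery rate (FDR) of 10% used throughout. Within the breeder diet fluoxetine minus saline was 0.64 on the log2 scale (SE 0.388, adjusted p = 1), and within the FA diet it was -0.61 (SE 0.377, adjusted p = 0.606). Among fluoxetine dams, FA diet minus breeder diet was -0.86 (SE 0.388, adjusted p = 1), and -0.92 without dam 3.

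Dam 3 sat in the middle of the *Igf1* values at 13.6 CPM, and without it the interaction was -1.32 (adjusted p = 0.997). With dam 5 of FA diet + fluoxetine left out instead, the interaction was -1.74, and over the dams left out in turn it ran from -1.74 to -1.10. Averaged over the other factor, the *Igf1* log2 fold change was 0.01 for fluoxetine (SE 0.270) and -0.23 for the FA diet (SE 0.270), and -0.017 and -0.26 without dam 3. The fluoxetine value lay so near 0 that its sign turned in 11 of the fits that each left out 1 dam. Fibroblast and macrophage markers also had interaction values mostly below 0 without dam 3, and mostly above 0 with it, as given beside *Igfbp4*. Skeletal muscle markers were below 0 in 7 of 7 with and without this dam (medians -1.9 and -1.72). Secretory markers were below 0 in 8 of 8 with it and 7 of 8 without it (medians -0.29 and -0.132). Luminal markers were below 0 in 4 of 5, and myoepithelial markers in 4 of 7, both times. Endothelial markers had 4 and 5 of 7 below 0, and adipocyte markers 1 and 4 of 6. The part of these lists in the *Igf1* values was not tested.

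*Igf2* (ENSMUSG00000048583, chromosome 7, 142204503 to 142220694), the other ligand, is imprinted and abundant before birth. It had 9 counts in the 31 libraries together: 6 in dam 4 and 1 in dam 3 of FA diet + saline, 1 in dam 4 of breeder diet + saline and 1 in dam 6 of FA diet + fluoxetine. Breeder diet + fluoxetine had 0 counts, which allows up to 0.0203 CPM of that group's total before TMM scaling (3 counts, counting error only). Counts assigned to *Igf2* were thus near the limit of detection in every group, and no difference between groups could be detected at this depth. The annotation places 58.4% of its exon bases also in the overlapping gene *Gm49394*, which had 0 counts. Reads shared by both genes are not counted for either, so these values cover only reads assigned to *Igf2* alone. The neighbouring imprinted *H19* RNA, 70545 bases from *Igf2* and described here after its values were seen, was detected in every dam and spread from 0.0592 to 55.3 CPM (median 2.50), with all 4 groups overlapping.

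*Igf1r* (ENSMUSG00000005533, chromosome 7, 67601518 to 67883416) was low in every library. With saline its range was 1.14 to 4.42 CPM (median 2.04) on the breeder diet and 0.863 to 2.50 CPM (median 1.54) on the FA diet. With fluoxetine it was 0.887 to 2.35 CPM (median 1.69) on the breeder diet and 0.948 to 4.60 CPM (median 2.02) on the FA diet. The 4 groups overlapped broadly, and the highest level, 4.60 CPM, was that of dam 3 of FA diet + fluoxetine. The interaction of 0.82 (SE 0.425, adjusted p = 0.977) was 0.54 without that dam (adjusted p = 0.997), a smaller difference that again did not pass. For fluoxetine the value was 0.01 with the dam and -0.13 without it, and for the FA diet -0.06 and -0.19.

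*Igf2r* (ENSMUSG00000023830, chromosome 17, 12901293 to 12988614) had the most counts of the 10 genes, 35475. Breeder diet dams lay between 44.0 and 72.5 CPM with saline (median 58.8) and between 33.3 and 79.9 CPM with fluoxetine (median 50.8). FA diet dams lay between 40.2 and 71.9 CPM with saline (median 52.3) and between 17.3 and 72.0 CPM with fluoxetine (median 48.3). The lowest value belonged to dam 3 of FA diet + fluoxetine, at 0.328 of the median of the other dams, and without it that group began at 35.2 CPM. The other 30 dams formed overlapping groups. Fluoxetine minus saline was -0.19 on the log2 scale (SE 0.138, adjusted p = 0.660) with dam 3 and -0.14 without it. The FA diet value was -0.14 with it and -0.08 without it, and the interaction, near 0, turned from -0.02 to 0.09.

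**Figure D1:**
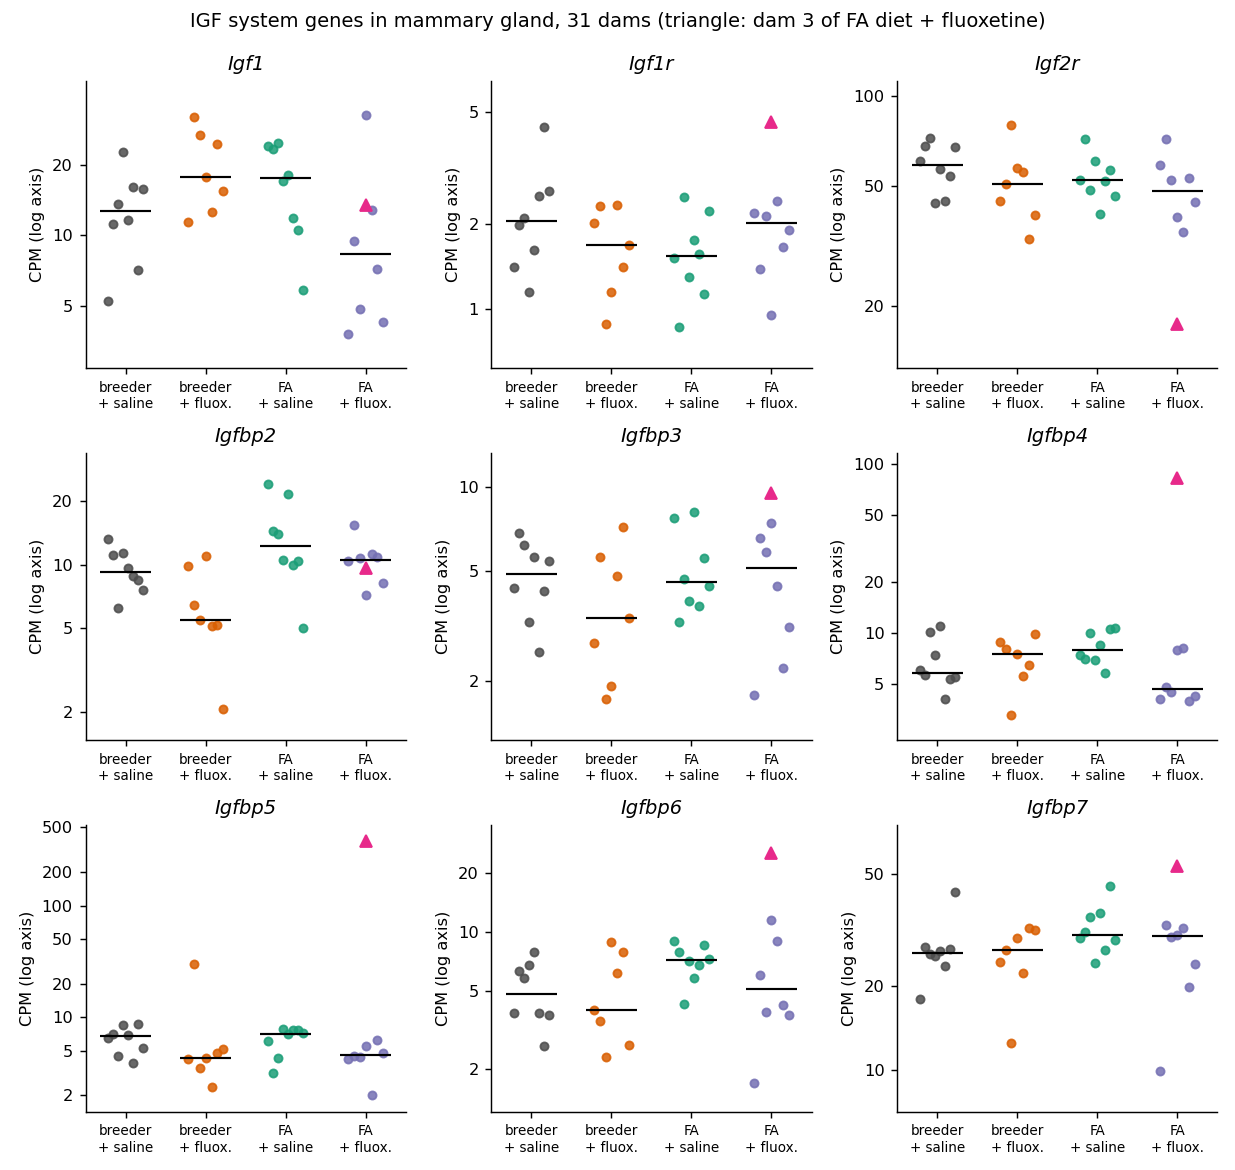
CPM after TMM scaling (log axis) of the 9 tested IGF genes in each of 31 dams, by group, with bars at group medians and a triangle for dam 3 of FA diet + fluoxetine. This dam is the highest in *Igf1r* and *Igfbp3* to *Igfbp7* and the lowest in *Igf2r*.

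*Igfbp2* (ENSMUSG00000039323, chromosome 1, 72863606 to 72891634) encodes a binding protein of blood and many tissues. On the breeder diet its level was 6.21 to 13.2 CPM with saline (median 9.27) and 2.07 to 11 CPM with fluoxetine (median 5.44). On the FA diet it was 5.03 to 24.2 CPM with saline (median 12.3) and 7.19 to 15.4 CPM with fluoxetine (median 10.6). Breeder diet + fluoxetine dams were low: 4 of 7 lay below the lowest breeder diet + saline dam. FA diet dams were high, with 13 of 16 above the breeder diet median, though the ranges of the diets overlapped. The log2 fold change for the FA diet was 0.62 (SE 0.186, 95% confidence interval 0.24 to 0.99), the smallest unadjusted p of any IGF gene (0.00225 in edgeR), with an adjusted p of 0.933. For fluoxetine it was -0.49 (SE 0.186, interval -0.86 to -0.11, unadjusted p 0.0133, adjusted p 0.416 in edgeR), with 10 of 15 fluoxetine dams below the saline median. Neither difference passed the FDR. Dam 3 of FA diet + fluoxetine had an *Igfbp2* level of 9.65 CPM, within the range of the others, and without it the values were 0.62 for the diet (adjusted p = 0.583) and -0.49 for fluoxetine (adjusted p = 0.464). The interaction was 0.17 with that dam (SE 0.370) and also without it. With other dams left out in turn it ran from 0.00987 to 0.351. These ends were the fits without dam 13 and without dam 7 of breeder diet + fluoxetine.

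The myoepithelial markers, 7 of 7 past the filter and led by *Acta2* (mean 172.7 CPM), were, like *Igfbp2*, lowest by their median in breeder diet + fluoxetine and highest in FA diet + saline. Their summed level had a median of 376.6 CPM in breeder diet + saline and 283.3 CPM in breeder diet + fluoxetine, and of 430.6 CPM in FA diet + saline and 352.7 CPM in FA diet + fluoxetine. None of the 7 passed the FDR in edgeR for either factor, and 2 had an unadjusted p of 0.05 or below for each, against 9.92% of all tested genes for fluoxetine and 5.08% for the FA diet. Their part in the *Igfbp2* values was not tested.

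*Igfbp3* (ENSMUSG00000020427, chromosome 11, 7156086 to 7164179) encodes the main IGF carrier of blood. Across the 31 dams its level ran from 1.72 to 9.53 CPM, with saline medians of 4.88 CPM on the breeder diet and 4.55 CPM on the FA diet, and fluoxetine medians of 3.37 and 5.12 CPM on the same diets. Every group held both low and high dams, and dam 3 of FA diet + fluoxetine was the highest at 9.53 CPM against at most 8.19 CPM elsewhere. On the log2 scale its differences were -0.16 for fluoxetine and 0.26 for the FA diet, each with an SE of 0.219, and -0.27 and 0.15 without dam 3. The interaction was 0.29 with this dam and 0.08 without it.

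*Igfbp4* (ENSMUSG00000017493, chromosome 11, 98932064 to 98945218) encodes a binding protein that restrains IGF1 until proteases split it. Breeder diet dams ranged from 4.05 to 11 CPM with saline (median 5.80) and from 3.25 to 9.86 CPM with fluoxetine (median 7.49). FA diet dams ranged from 5.82 to 10.6 CPM with saline (median 7.96) and from 3.98 to 83.0 CPM with fluoxetine (median 4.64). The 83.0 CPM was dam 3, 11.9 times the median of the other 30 dams, and without it FA diet + fluoxetine ended at 8.14 CPM. Among those 7 remaining dams, 5 lay below the lowest FA diet + saline dam, and the median of the 7 was 4.47 CPM, below that of each other group. The direction of the fold change turned on that dam: within the FA diet fluoxetine minus saline was 0.87 on the log2 scale with it (SE 0.504, adjusted p = 0.577) and -0.65 without it (SE 0.221, adjusted p = 0.733). Averaged over both diets the fluoxetine value was 0.46 with dam 3 and -0.30 without it, and for the FA diet it was 0.69 and -0.06. Likewise the interaction was 0.82 with dam 3 and -0.69 without it (adjusted p = 0.977 and 0.997), and DESeq2, which replaced the count of this dam as outlying, gave -0.625 over all 31.

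Fibroblast markers were, like *Igfbp4*, lower in FA diet + fluoxetine without dam 3 than in FA diet + saline. Their 6 genes summed to a median of 145.3 CPM in FA diet + saline and 98.4 CPM in FA diet + fluoxetine without dam 3, and to 126.0 and 126.4 CPM in the breeder diet groups with saline and fluoxetine. Averaged over both diets and without dam 3, all 6 had a fluoxetine value below 0 (median log2 fold change -0.49), 5 of them at an unadjusted p of 0.05 or below, against 9.21% of all tested genes, and 0 past the FDR in edgeR. With dam 3 the values of 2 of 6 were below 0 (median 0.07). The interaction of these 6 genes was below 0 in all 6 without dam 3 (median -0.69), 3 of them at an unadjusted p of 0.05 or below, against 3.48% of all genes, and above 0 in all 6 with it (median 0.41), 0 of them at that p, against 3.84%, with 0 past the FDR in edgeR either way. Macrophage markers had medians of 60.9 CPM in FA diet + fluoxetine without dam 3 and 72.3 CPM in FA diet + saline, and without dam 3 their interaction was below 0 in 7 of 8 genes (median -0.49), 3 of them at an unadjusted p of 0.05 or below, against 3.48% of all genes, and 0 past the FDR in edgeR. With dam 3 it was above 0 in 6 of the 8 (median 0.07), 1 of them at that p, against 3.84% of all genes. Markers of 1 cell type, measured in the same dams, can rise and fall together. Their counts, here and for the other lists, are thus not counts of independent genes. The part of the fibroblast or the macrophage list in the *Igfbp4* values was not tested.

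*Igfbp5* (ENSMUSG00000026185, chromosome 1, 72897091 to 72914043) is the binding protein gene associated with involution. With saline it ranged from 3.92 to 8.62 CPM on the breeder diet (median 6.80) and from 3.16 to 7.78 CPM on the FA diet (median 7.15). With fluoxetine it ranged from 2.40 to 29.98 CPM on the breeder diet (median 4.32) and from 2.0 to 378.2 CPM on the FA diet (median 4.64). Fluoxetine dams held both the low and the very high values: 13 of 15 lay below the saline median of 7.05 CPM, while dam 5 of breeder diet + fluoxetine (29.98 CPM) and dam 3 of FA diet + fluoxetine (378.2 CPM, 71.9 times the median of the others) lay above every saline dam. The log2 fold change for fluoxetine over all dams was 1.65 (SE 0.627, adjusted p = 0.417). Its direction depended on these libraries: it was -0.11 without dam 3 (SE 0.274, adjusted p = 0.934), -0.58 without both dams, a fit chosen after seeing the data (adjusted p = 0.364), and -0.52 in DESeq2, which replaced both dams' counts as outlying (adjusted p = 0.153). For the FA diet the value of 1.35 with dam 3 (adjusted p = 0.933) was -0.41 without it, and the interaction of 2.73 (adjusted p = 0.977) was -0.79.

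Dam 5 of breeder diet + fluoxetine also had the highest summed level of the 7 skeletal muscle markers, 6535 CPM, in a list led by *Myh4* (mean 193.9 CPM) that spanned 0.664 to 6535 CPM over the 31 dams. The median of that sum with saline was 359.6 CPM on the breeder diet and 136.4 CPM on the FA diet, and with fluoxetine 184.5 and 23.4 CPM. Dam 3 of FA diet + fluoxetine had the lowest sum, 0.664 CPM, so the pair of dams with the highest *Igfbp5* lay at opposite ends of the muscle markers. The part of muscle RNA in the *Igfbp5* values was not tested.

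*Igfbp6* (ENSMUSG00000023046, chromosome 15, 102052697 to 102057953) encodes a binding protein that prefers IGF2. Its levels were 2.61 to 7.89 CPM in breeder diet + saline (median 4.85) and 2.31 to 8.93 CPM in breeder diet + fluoxetine (median 3.99). In FA diet + saline they were 4.29 to 8.99 CPM (median 7.22), and in FA diet + fluoxetine 1.69 to 25.3 CPM (median 5.13). FA diet dams tended to be high, 13 of 16 above the breeder diet median, but FA diet + fluoxetine also held the lowest dam of all. By their medians the lowest and the highest group were those of the myoepithelial markers too, whose part in the *Igfbp6* values was not tested. FA diet minus breeder diet was 0.59 on the log2 scale (SE 0.269, adjusted p = 0.933) and was 0.33 without dam 3, the dam at 25.3 CPM (adjusted p = 0.804). The other directions turned on this dam: fluoxetine had 0.10 with it and -0.17 without it, and the interaction 0.24 and -0.30. Of 6 fibroblast markers, 6 had an FA diet value above 0 with this dam (median 0.547) and 4 without it (median 0.0248). In edgeR 2 and 0 of them had an unadjusted p of 0.05 or below, against 5.08% and 6.99% of all genes. Their part in the *Igfbp6* values was not tested either.

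*Igfbp7* (ENSMUSG00000036256, chromosome 5, 77493130 to 77555931) encodes a secreted protein that binds IGFs weakly and is found around vessels. It spanned 9.98 to 53.3 CPM over the 31 dams, with breeder diet medians of 26.1 CPM for saline and 26.9 CPM for fluoxetine, and FA diet medians of 30.3 and 29.99 CPM. Both ends were FA diet + fluoxetine dams, dam 3 being the highest, and the groups overlapped. Fold changes were -0.11 for fluoxetine and 0.21 for the FA diet on the log2 scale, each with an SE of 0.155, and -0.22 and 0.11 without dam 3. The interaction was -0.06 with this dam and -0.26 without it. With dam 1 of FA diet + fluoxetine left out instead, the fluoxetine value of *Igfbp7* was -0.0501. The annotation gives 13.7% of its exon bases an overlap with *Polr2b* on the other strand.

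Over the 9 tested genes, 0 passed the FDR of 10% in edgeR for fluoxetine, where 0.0209% of all tested genes did (3 of 14362), and 2 had an unadjusted p of 0.05 or below (*Igfbp2* lower, *Igfbp5* higher), against 9.92% of all genes. For the FA diet 0 of 9 passed, against 0% of all genes, and 3 had an unadjusted p of 0.05 or below (*Igfbp2*, *Igfbp5* and *Igfbp6*, all higher), against 5.08%. For the interaction 0 of 9 passed, against 0% of all genes, and 2 reached an unadjusted p of 0.05 (*Igf1* lower, *Igfbp5* higher), against 3.84%. DESeq2 and the likelihood ratio test of edgeR also passed 0 of the 9 in each comparison, where over all tested genes they passed 0.487% and 0.313% for fluoxetine and 0% for the FA diet and the interaction. With so few genes, these counts say little about how far the IGF genes differ from the rest.

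Leaving out dam 3 of FA diet + fluoxetine changed the directions more than the counts. For fluoxetine, 5 of the 9 log2 fold changes were above 0 with this dam and 0 of 9 without it. Over all tested genes, 7687 of 14362 were above 0 with it and 6892 of 14247 without it. The median of the 9 went from 0.01 to -0.17 (from 0.02 to -0.01 over all tested genes). Without it 0 of 9 passed the FDR in edgeR and 1 (*Igfbp2*) had an unadjusted p of 0.05 or below, against 0.0211% and 9.21% of 14247 genes. The FA diet values were above 0 in 6 of 9 genes with the dam and in 4 of 9 without it (medians 0.26 and -0.06), and *Igfbp2* was the gene left at an unadjusted p of 0.05 or below, with 0 past the FDR in edgeR, against 0% past the FDR and 6.99% at that p among all genes. Interaction values were above 0 in 6 of 9 and 4 of 9 genes (medians 0.24 and -0.26). Over all tested genes, 7746 of 14362 and 6957 of 14247 were above 0 for the FA diet, and 7754 and 6916 for the interaction. Without the dam 0 of 9 passed in edgeR and *Igf1* and *Igfbp4*, both below 0, had an unadjusted p of 0.05 or below, against 0% and 3.48% of all genes.

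**Figure D2:**
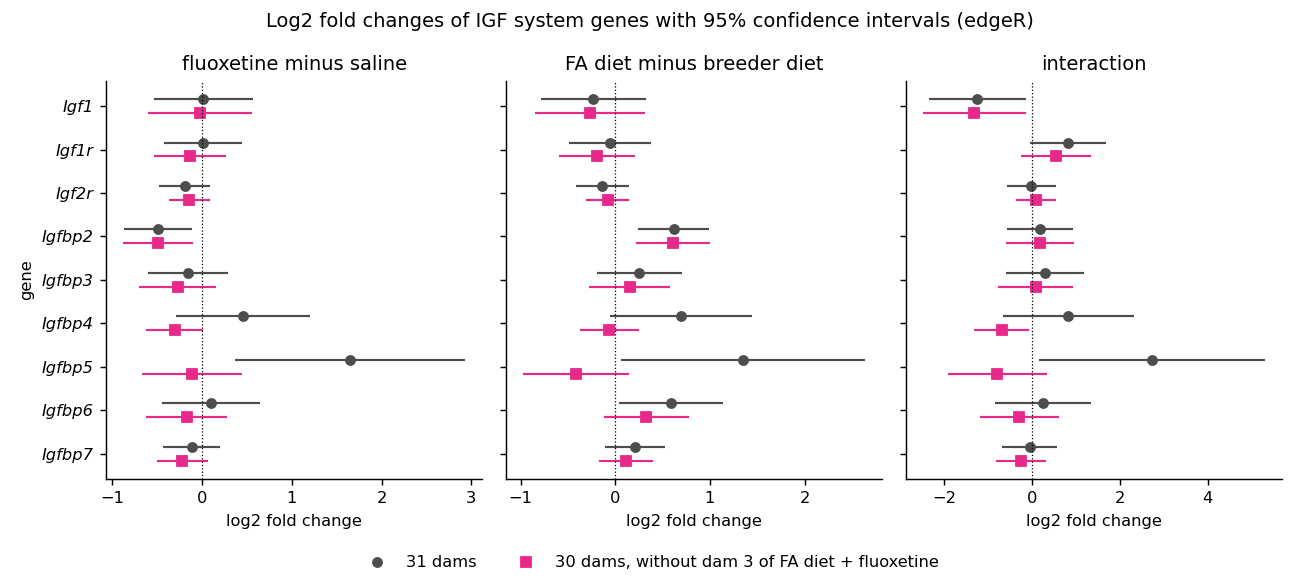
Log2 fold changes (edgeR) of the 9 tested IGF genes for fluoxetine, the FA diet and the interaction, with 95% confidence intervals as bars, over 31 dams (circles) and over 30 dams without dam 3 of FA diet + fluoxetine (squares). *Igf1* and *Igfbp2* keep similar values in both fits, while *Igfbp5* goes from 1.65 to -0.11 for fluoxetine.

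Levels can be compared between genes only per length, here as CPM divided by the kilobases of all annotated exon bases of the gene, written FPKM. Over the 30 dams without dam 3, the mean was 5.74 FPKM for *Igf2r*, 5.08 FPKM for *Igfbp7*, 4.90 FPKM for *Igfbp2* and 4.19 FPKM for *Igfbp6*. These 4 formed an upper tier whose order did not hold beyond the spread: *Igf2r* was above *Igfbp7* in 21 of 30 dams, *Igfbp7* above *Igfbp2* in 17 and *Igfbp2* above *Igfbp6* in 18. A step followed, with *Igfbp6* above *Igfbp4* in 29 of 30 dams (mean log2 ratio 1.35, SD 0.604). The middle tier held *Igfbp4* at 1.58 FPKM, *Igf1* at 1.49 FPKM, *Igfbp3* at 1.30 FPKM and *Igfbp5* at 1.05 FPKM, again with neighbours that changed places in many dams. *Igf1r* was far below, at 0.0930 FPKM, under *Igfbp5* in 30 of 30 dams (mean log2 ratio 3.39, SD 0.846), and *Igf2* was last at 0.00231 FPKM. The *Igf2* value leaves out reads shared with *Gm49394* but divides by all its exon bases, so it may be too low.

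With dam 3 included, the mean of *Igfbp5* was 3.05 FPKM, which put it above *Igfbp4* at 2.13 FPKM, although it was above *Igfbp4* in just 4 of 31 dams. With the length of the canonical transcript, a choice made after seeing the data, *Igfbp2* came first at 7.71 FPKM, before *Igf2r* at 5.88 FPKM and *Igfbp7* at 5.34 FPKM over 31 dams. Among all tested genes, 88.4% had a lower mean FPKM than *Igf2r*, 64.1% a lower one than *Igf1* and 7.21% a lower one than *Igf1r*. The receptor that signals was thus the scarcer transcript: *Igf1r* had a median of 0.0176 of the FPKM of *Igf2r*, and dam 3 of FA diet + fluoxetine was highest at 0.126. This ratio depends on the length used: with that of the canonical transcript (12466 in place of 19768 bases) *Igf1r* had a mean of 0.155 FPKM over 31 dams, beside the 5.88 FPKM of *Igf2r*.

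**Figure D3:**
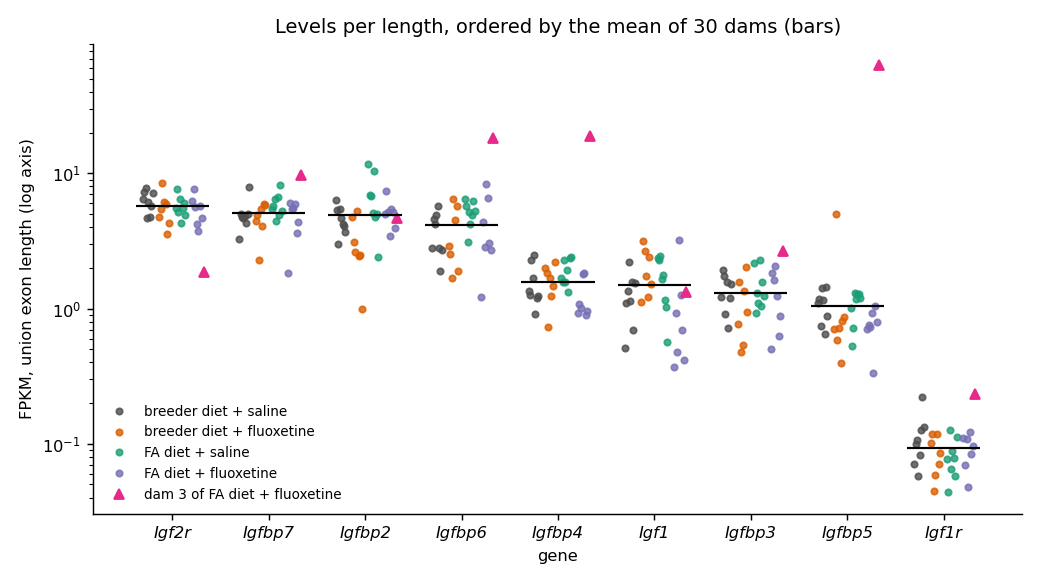
FPKM (log axis) of the 9 tested IGF genes per dam, ordered by the mean over 30 dams (bars), with groups in colour and a triangle for dam 3 of FA diet + fluoxetine. *Igf2r*, *Igfbp7*, *Igfbp2* and *Igfbp6* form the upper tier and *Igf1r* lies lowest at a mean of 0.0930 FPKM.

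Set against its binding proteins, *Igf1* was a small part of the transcripts. Its FPKM as a percentage of the summed FPKM of *Igfbp2* to *Igfbp7* had a median of 6.84% with saline and 11.9% with fluoxetine on the breeder diet. On the FA diet the medians were 7.47% with saline and 3.97% with fluoxetine (4.31% without dam 3). By these medians the share with fluoxetine was high on the breeder diet and low on the FA diet, and the groups overlapped. Dam 3 had the lowest share, 1.13%, and without it the lowest in its group was 2.81%. The summed binding protein level itself had medians of 17.3 and 15.5 FPKM on the breeder diet, for saline and fluoxetine, and of 21.0 and 19.1 FPKM on the FA diet. Dam 3 reached 117.2 FPKM against at most 28.5 FPKM in any other dam, and *Igfbp5* made up 53.7% of it, where the median over all dams was 5.18%.

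The genes also differed in how much they varied between dams of the same group. Without dam 3, the within-group SD of log2 CPM was largest among the 9 for *Igf1* (0.784), followed by *Igfbp5* (0.687) and *Igfbp6* (0.651), and smallest for *Igf2r* (0.323). With it, *Igfbp5* came first at 1.34, above 97.1% of all tested genes, and *Igf1* had 0.780.

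*Igfbp2* and *Igfbp5* are neighbours on chromosome 1, 5456 bases apart and transcribed towards each other. No relation between their levels was detected: after removing group means, Pearson's r of log2 CPM over 30 dams without dam 3 was -0.03 (permutation p = 0.896) and Spearman's rho -0.09 (permutation p = 0.647), with a p of 0.917 adjusted over the 36 pairs of IGF genes and r of 0.00011 without the 2 farthest dams. Of the 36 pairs, 1 had an adjusted p of 0.05 or below by Pearson's r over these 30 dams, *Igfbp3* with *Igfbp7*. For this pair r was 0.62 (permutation p = 0.00084) and rho 0.60 (permutation p = 0.0012), the adjusted p was 0.0302, and r was 0.52 without the 2 farthest dams. Over all 31 dams r was 0.67 (permutation p = 0.0002, adjusted p = 0.0072) and rho 0.64 (permutation p = 0.00049). Another 3 pairs were past the threshold over 31 dams and not over 30: *Igfbp4* with *Igfbp6*, *Igf2r* with *Igfbp4* and *Igfbp6* with *Igfbp7*. The pair *Igf2r* and *Igfbp4*, for example, had r of -0.72 (permutation p = 0.00307) and rho of -0.50 (permutation p = 0.00664) with dam 3 (adjusted p = 0.0368, r of -0.43 without the 2 farthest dams), and r of -0.41 (permutation p = 0.0444) and rho of -0.36 (permutation p = 0.0682) without it (adjusted p = 0.177).

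Several IGF genes followed marker lists of a cell type across the dams. For these relations the level of a list was the mean log2 CPM of its tested markers. Each marker was scaled to the same spread, so the list level is not the summed CPM given above. Of 81 pairs of a tested IGF gene and a marker list, 14 had a p, adjusted over the 81, of 0.05 or below by Pearson's r over 30 dams, 17 over 31, and 11 over both. The share of all tested genes with such relations is not given here. These counts, like those of the pairs of IGF genes, thus do not set the IGF genes apart from other genes. Of the 14 pairs, 11 were also at or below 0.05 by Spearman's rho, and *Igf1* with myoepithelial, *Igfbp7* with luminal and *Igfbp3* with endothelial markers were not (adjusted p of rho 0.106, 0.131 and 0.0523). By rho and not by r, *Igf1r* was past the threshold with endothelial and secretory markers and *Igf2r* with secretory markers (adjusted p of rho 0.0444, 0.0325 and 0.0444). *Igfbp6* was higher with higher myoepithelial markers over 30 dams (r = 0.75, permutation p = 5e-05, rho = 0.71, permutation p = 7e-05, adjusted p = 0.00324, r = 0.66 without the 2 farthest dams). *Igfbp7* likewise followed the 7 endothelial markers, led by *Kdr* at 12.9 CPM (r = 0.71, permutation p = 0.00016, rho = 0.64, permutation p = 0.00058, adjusted p = 0.00324, r = 0.56 without the 2 farthest dams). *Igfbp4* followed fibroblast markers (r = 0.68, permutation p = 0.0001, rho = 0.64, permutation p = 0.0003, adjusted p = 0.00324, r = 0.56 without the 2 farthest dams). Among receptors, *Igf2r* followed luminal markers (r = 0.68, permutation p = 0.00012, rho = 0.72, permutation p = 5e-05, adjusted p = 0.00324, r = 0.59 without the 2 farthest dams). So within groups these 3 binding proteins varied with stromal, vessel and basal cell transcripts, and *Igf2r* with luminal ones. These 4 relations also had an adjusted p of 0.05 or below over 31 dams.

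A further 10 pairs were past the threshold over 30 dams. *Igfbp4* was in this set with adipocyte and macrophage markers, *Igfbp6* with fibroblast and secretory markers, *Igfbp7* with fibroblast and, inversely, luminal markers, and *Igfbp3* with endothelial markers. The relation of *Igfbp6* to secretory markers turned on dam 3: r was 0.46 over 30 dams (permutation p = 0.0062, rho = 0.52, permutation p = 0.00295, adjusted p = 0.0406, r = 0.55 without the 2 farthest dams) and -0.36 over 31 (permutation p = 0.236, rho = 0.15, permutation p = 0.408, adjusted p = 0.357). *Igfbp5* went with skeletal muscle markers over 30 dams (r = 0.55, permutation p = 0.00393, rho = 0.53, permutation p = 0.0028, adjusted p = 0.0318, r = 0.40 without the 2 farthest dams) but not over 31 (r = 0.05, permutation p = 0.891, rho = 0.28, permutation p = 0.115). Only the myoepithelial list was past the threshold with *Igf1* over 30 dams (r = 0.54, permutation p = 0.00659, rho = 0.43, permutation p = 0.0288, adjusted p = 0.0406), and r was 0.35 without the 2 farthest dams. *Igf1r* went against the same list (r = -0.49, permutation p = 0.00702, rho = -0.50, permutation p = 0.00768, adjusted p = 0.0406, r = -0.37 without the 2 farthest dams), but not past the threshold over 31 dams (r = -0.31, permutation p = 0.114, rho = -0.33, permutation p = 0.086, adjusted p = 0.221). *Igfbp2* was past the threshold with none of the 9 lists over 30 or 31 dams.

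**Figure D4:**
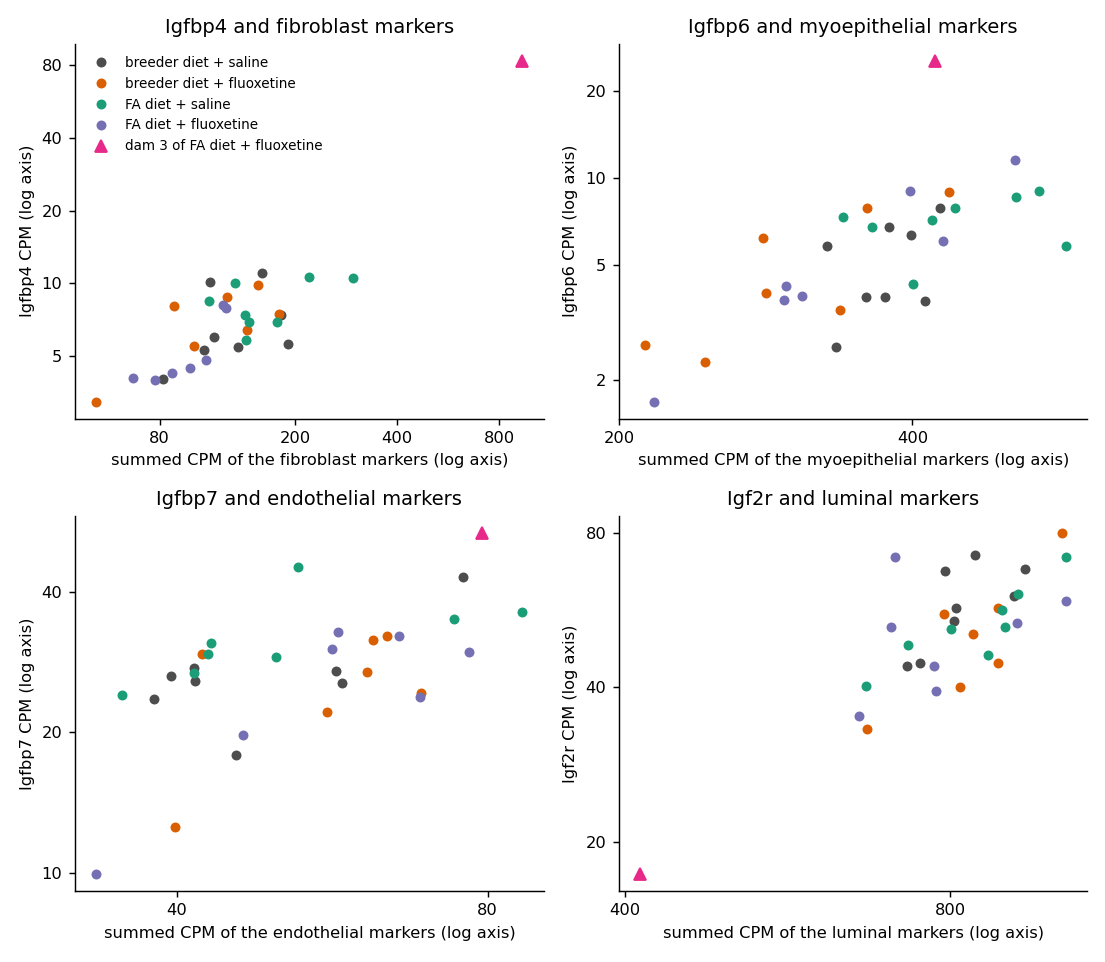
CPM of *Igfbp4*, *Igfbp6*, *Igfbp7* and *Igf2r* (log axes) against the summed CPM of fibroblast, myoepithelial, endothelial and luminal markers (log axes), 1 point per dam, coloured by group, with a triangle for dam 3 of FA diet + fluoxetine. With group means removed, r over the other 30 dams was 0.68, 0.75, 0.71 and 0.68. These r were computed with the mean scaled log2 CPM of each list, all markers weighted equally, and not with the plotted sums.

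The genes whose levels were most like each IGF gene were ranked by Pearson's r of log2 CPM with group means removed, over 30 dams without dam 3, and are given as a description, with r over those 30 dams and then over all 31. For *Igf1* these were *Adcy4* (0.72, 0.73), *Ints4* (0.69, 0.565) and *Cbr2* (0.685, 0.565). *Igf1r* was most like *Arhgap20* (0.68, 0.66), *Atp11a* (0.67, 0.74) and *Mcph1* (0.655, 0.69), and *Igf2r* like *Eif4ebp2* (0.90, 0.865), *Snx13* (0.90, 0.88) and *Rell1* (0.88, 0.86). *Igf2r* thus had the closest companions of the 9 genes by r over 30 dams. *Igfbp2* was most like *Cnn1* (0.67, 0.655), a smooth muscle and myoepithelial contractile gene, then *Cald1* (0.65, 0.39) and *Pycr1* (0.65, 0.39). For *Igfbp3* the nearest were *Tgm2* (0.73, 0.73), *Tmco4* (0.685, 0.685) and *Atp2a3* (0.68, 0.71), and for *Igfbp4* they were *Gsn* (0.75, 0.92), *Nnmt* (0.73, 0.61) and *Fabp4* (0.73, 0.87), the last being one of the adipocyte markers. *Igfbp5* was nearest to *Myo18b* (0.76, 0.05), *Hspb6* (0.75, 0.37) and *Bin1* (0.74, 0.14), a likeness that was much weaker with dam 3 included. *Igfbp6* was nearest to *Krt17* (0.845, 0.70), one of the myoepithelial markers, *Loxl1* (0.77, 0.85) and *Cd248* (0.77, 0.84), and *Igfbp7* to the matrix genes *Sparc* (0.86, 0.88), *Col18a1* (0.82, 0.84) and *Bgn* (0.81, 0.77).

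Other genes of the pathway were taken from 4 lists, and 0 genes of any list passed the FDR in edgeR in any comparison. The family list of 10 further genes had 3 past the filter: *Insr*, the insulin receptor, *H19*, and *Igf2bp2*, which encodes an RNA-binding protein. *Igfbp1*, *Igfbpl1*, *Ins1* and *Ins2* had 0 counts in all dams, and *Insrr*, *Igf2bp1* and *Igf2bp3* had 18, 38 and 126 counts in all. *Insr* had a median of 18.4 CPM over the 31 dams, and its log2 fold change was -0.16 for fluoxetine (SE 0.105) and -0.04 for the FA diet. For fluoxetine 1 of the 3 genes was above 0, for the FA diet 1 and for the interaction 2, with 0 at an unadjusted p of 0.05 or below in each, against 9.92%, 5.08% and 3.84% of all tested genes. Without dam 3 *Igf2bp2* fell short of the filter.

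The list of IGF carriers and proteases had 7 of 10 genes past the filter, with *Pappa2* at 0 counts, *Plg* at 4 and *Pappa* at 125. *Igfals*, which encodes the subunit that holds IGF and IGFBP3 in a large complex in blood, had 65966 counts, more than any of the 10 IGF genes, and a median of 97.7 CPM. The annotation gives 17.1% of its exon bases an overlap with *Gm41549* on the other strand, a gene absent from the count files. The lowest dam for *Igfals* was dam 3 of FA diet + fluoxetine at 11.3 CPM, against 68.0 to 166.2 CPM in the other 30. Saline medians were 99.2 CPM on the breeder diet and 129.2 CPM on the FA diet, and fluoxetine medians 83.9 and 90.8 CPM. *Igfals* was thus highest in FA diet + saline, with overlap, and its log2 fold change for fluoxetine was -0.32 with dam 3 (SE 0.175, adjusted p = 0.547) and -0.25 without it (SE 0.104, adjusted p = 0.483). The 8 secretory markers had the same directions: their fluoxetine values were below 0 in 8 of 8 with dam 3 and 7 of 8 without it, their FA diet values above 0 in 8 of 8 both times, and the median of their sum was highest in FA diet + saline (797300 CPM). In edgeR 0 of them passed the FDR, and 1 for fluoxetine (2 without dam 3) and 0 for the FA diet had an unadjusted p of 0.05 or below, against 9.92% (9.21%) and 5.08% of all genes. Their part in the *Igfals* values was not tested. *Htra1*, a secreted protease that splits IGF binding proteins, had FA diet medians of 5.30 CPM with saline and 4.09 CPM with fluoxetine, and breeder diet medians of 4.13 and 3.77 CPM. FA diet minus breeder diet was 0.58 on the log2 scale with dam 3, which had 26.9 CPM, and 0.14 without it (adjusted p = 0.933 and 0.898). In this list 4 of 7 genes were above 0 for fluoxetine, 6 of 7 for the FA diet and 3 of 7 for the interaction, and 1 (*Htra1*, FA diet) had an unadjusted p of 0.05 or below in edgeR, against 5.08% of all tested genes. Without dam 3 the counts above 0 were 1, 4 and 0 of 7, and *Igfals* and *Htra1* for fluoxetine (the latter -0.36) and *Igfals* for the FA diet (0.23) were the genes at or below that p, against 9.21% and 6.99% of all genes.

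All 23 genes of the receptor signalling list, from *Irs1* to *Mtor*, passed the filter. For fluoxetine 9 of 23 were above 0 (median log2 fold change -0.05), for the FA diet 6 of 23 (median -0.05) and for the interaction 13 of 23 (median 0.05), beside medians of 0.02, 0.02 and 0.03 over all tested genes. In edgeR 0, 0 and 2 of them had an unadjusted p no higher than 0.05, against 9.92%, 5.08% and 3.84% of all tested genes. *Pik3r2*, a regulatory subunit of PI3K, had an interaction of 0.55 (SE 0.222, adjusted p = 0.977), with a median of 9.94 CPM in FA diet + saline and 13.4 CPM in FA diet + fluoxetine, and 12.4 and 11.8 CPM on the breeder diet. *Tsc1*, a brake on mTOR, had an interaction of 0.60 (SE 0.273, adjusted p = 0.977), which was 0.40 without dam 3. In the fit without that dam *Grb10*, an adaptor that binds the receptor, had an interaction of -0.60 (adjusted p = 0.997), and *Pik3r2* one of 0.465.

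The list of growth hormone and STAT5 genes, which control *Igf1* in liver and act in the lactating gland, had 8 of 9 genes past the filter, with *Gh* at 0 counts. *Socs2*, a STAT5 target that restrains growth hormone signalling, ranged from 8.01 to 25.4 CPM with saline (median 18.8) and from 6.80 to 25.9 CPM with fluoxetine (median 13.0). Fluoxetine dams were lower by their median, with wide overlap. Its log2 fold change for fluoxetine was -0.38 with and without dam 3 (SE 0.158, adjusted p = 0.441 with it and 0.487 without). *Ghr*, the growth hormone receptor, had medians of 16.7 CPM with saline and 13.8 CPM with fluoxetine and a log2 fold change of -0.21 (adjusted p = 0.574), which was -0.27 without dam 3 (adjusted p = 0.506). Of the 8 genes, 3 were above 0 for fluoxetine, 3 for the FA diet and 5 for the interaction, and 1 (*Socs2*, fluoxetine) had an unadjusted p of 0.05 or below in edgeR, against 9.92% of all genes. Without dam 3 *Socs1* fell short of the filter, 2, 2 and 4 of 7 were above 0, and *Socs2* and *Ghr*, both for fluoxetine, were at or below that p, against 9.21% of all genes.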

How the data were processed

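Per the file headers and the study's methods, the deposited values are raw read counts per Ensembl gene, 1 file per dam, which the authors made from poly(A)-selected paired-end libraries with FastQC 0.11.7, Trim Galore 0.4.4, HISAT2 against GRCm39 and HTSeq, without normalization. The annotation release and strand option are not stated. Gene positions and exon lengths were read from GENCODE vM39. The labels give no batch, and samples were grouped by diet and drug. Genes were filtered by filterByExpr and fitted over all 31 dams with edgeR 4.0.16 (TMM, robust quasi-likelihood, 4 group means, Benjamini-Hochberg over all tested genes, FDR 10%), and again without dam 3 of FA diet + fluoxetine. Relations used log2 CPM (prior count 2) with group means removed, and two-sided permutation of dams within groups (1e+05 resamples). A marker list entered them as the mean of its tested markers, each scaled to the same spread. The fit was tested on simulated data that held no library with an outlying profile, so that test does not cover results that turn on dam 3 of FA diet + fluoxetine. IGF genes, marker and pathway lists were chosen with earlier results of these data known. Named were the 10 IGF genes, up to 3 list genes per comparison with an unadjusted p of 0.05 or below, list genes short of the filter, the most abundant marker of each list and the 3 genes most alike to each IGF gene by r. Other genes named (*H19*, *Insr*, *Igf2bp2*, *Igfals*, *Ghr*, *Grb10*) were picked after their values were seen. Alternatives were DESeq2 1.42.0, the likelihood ratio test, other filters and scalings, a replicate block and each dam left out.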

Additional observations from a re-analysis of the deposited data

Results flagged for a closer look

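In 36 groups of 7 or 8 dams (9 IGF genes in 4 groups), the gap on the log2 CPM scale between the most extreme dam and its nearest neighbour was set against the range of the group, and 4 values from 3 dams lay farther out than the 95% limit of Dixon's test. Chance alone picks about 1 in 20 groups. The share of all tested genes past this limit is not given here, so the count does not set the IGF genes apart. Dam 3 of FA diet + fluoxetine stood apart from the other libraries in its whole profile, as given above. *Igfbp4* at 82.97 CPM in dam 3 of FA diet + fluoxetine lay far above the other 7 dams of its group. *Igfbp5* at 378.2 CPM in the same dam was the highest level of any IGF gene in any dam and lay far above its group. *Igfbp5* at 29.98 CPM in dam 5 of breeder diet + fluoxetine lay well above the other 6 dams. *Igfbp7* at 12.54 CPM in dam 6 of breeder diet + fluoxetine lay below the rest of its group, the single low value among the 4.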

How the results depend on the processing

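The 9 tested IGF genes stayed short of the FDR under every alternative, each dam left out included. Of the planned refits of their log2 fold changes, 997 kept their direction and side of the threshold and 56 turned. The likelihood ratio test gave 45 genes for fluoxetine over all genes, DESeq2 70, no filter 1 and the replicate block 0, against 3. DESeq2, which replaced outlying counts of *Igfbp4* and *Igfbp5*, turned *Igfbp4* (fluoxetine -0.271, FA diet -0.0344, interaction -0.625) and *Igfbp5* (fluoxetine -0.52), and left 1 IGF gene at an unadjusted p of 0.05 or below for the interaction, against 4.45% of all genes. No filter turned *Igf1r* for fluoxetine (-0.00219). The replicate block, on dam numbers that did not pair libraries across groups (median r 0.0791 for shared numbers, -0.00699 for others), left 0 for the interaction, against 3.11%. It gave -0.0422 (*Igfbp4*), -0.493 (*Igf1*) and -0.579 (*Igfbp6*) for fluoxetine, -0.439 (*Igfbp5*) for the FA diet, and -0.159 (*Igfbp4*), -0.306 (*Igfbp5*) and 0.327 (*Igfbp7*) for the interaction. Chosen after seeing the data, leaving out dam 3 of FA diet + fluoxetine with dam 5 of breeder diet + fluoxetine gave -0.579 for *Igfbp5* with fluoxetine, and 1 (FA diet) and 0 (interaction) IGF genes at that p, against 6.19% and 3.39% of all genes, and with dam 13 in place of dam 5, 1 and 1, against 7.26% and 3.17%. Without removing group means, 9 pairs of IGF genes passed instead of 4, and without dam 3 of FA diet + fluoxetine 1 did. Over the fits that each left out 1 dam, genes called for fluoxetine ran from 0 to 19, and IGF genes at that p from 1 to 2 (fluoxetine), 1 to 5 (FA diet) and 1 to 3 (interaction), against 7.03% to 13.5%, 3.87% to 6.99% and 2.96% to 5.28% of all genes. The 5 came without dam 1 of FA diet + fluoxetine, where 5.49% of all genes were at that p. Over the same fits log2 fold changes ran, for fluoxetine, from -0.218 to 0.0966 (*Igf1*), -0.131 to 0.123 (*Igf1r*), -0.303 to 0.529 (*Igfbp4*), -0.112 to 1.74 (*Igfbp5*) and -0.169 to 0.179 (*Igfbp6*). For the FA diet they ran from -0.193 to 0.0546 (*Igf1r*), -0.0629 to 0.764 (*Igfbp4*) and -0.411 to 1.81 (*Igfbp5*). For the interaction they ran from -0.138 to 0.118 (*Igf2r*), -0.693 to 0.964 (*Igfbp4*), -0.793 to 3.66 (*Igfbp5*), -0.298 to 0.434 (*Igfbp6*) and -0.263 to 0.0679 (*Igfbp7*). Among these fits, *Igfbp4*, *Igfbp5* and *Igfbp6* turned in the fit without dam 3 of FA diet + fluoxetine and in no other; the cause of the other changes, those under DESeq2 and the replicate block included, was not tested. Leaving out the 20 most abundant genes, which lowers the library sizes, put the mean CPM of *Igf1* at 63.8 (from 15.2), *Igf1r* at 8.09 (from 1.93) and *Igf2r* at 221 (from 52.6), and 8 of the 9 means moved by more than their SD between dams, so the CPM hold for the full library sizes. *Igf2* had too few counts for any test.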
